A study of Drosophila melanogaster with 2 samples.

Results

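The peaks described here are the strong sites of a Su(var)2-HP2-GFP ChIP-seq experiment that were strong in replicate 4 and had no strong counterpart in replicate 6. Members were chosen by signal value: a peak counted as strong when its value was among the highest of its own list, with as many peaks taken from each list as the authors' list thresholded on agreement between replicates holds. Of the 30000 peaks in the replicate 4 list, 667 were strong and had no summit within 100 bp among the strong peaks of replicate 6, and these are the members. They make up 33.3% of the strong peaks of replicate 4, and the other 1339 are called shared strong peaks. A set of 667 strong peaks of replicate 6 with no strong replicate 4 summit within 100 bp served for contrast.

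Whole Drosophila melanogaster embryos aged 0 to 10 h were used, from a transgenic line that stably expresses Su(var)2-HP2 fused to GFP at the C terminus. Chromatin was sonicated to 200 to 800 bp and immunoprecipitated with an antibody against GFP. The study has 1 group of 2 biological replicates, numbered 4 and 6, from the same line and age, with a common control alignment. The labels used here give no promoter for the transgene, and its level relative to the untagged protein is not known. Both libraries come from whole embryos, so cell types cannot be told apart. Read numbers are in none of the files, which leaves the depth of each library unknown. Since each list comes from 1 library, no test between the lists was made. Shares are given with Wilson 95% intervals, which cover counting error only.

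Su(var)2-HP2 is a binding partner of HP1, the chromodomain protein that packages pericentromeric DNA and much of the small chromosome 4 into heterochromatin. Most ribosomal protein genes lie outside heterochromatin, on the chromosome arms, and are transcribed at a high rate in nearly all cells from start sites within a tract of C and T called the TCT initiator. Forkhead proteins are a family of transcription factors, with foxo, fkh and slp1 among those of the fly, that recognise cores such as TAAACA and CAAACA.

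The members on the arms fell into 2 kinds of site, and sequences of both are shown. The first kind lay away from start sites, mostly in introns. The 5 windows below are the 50 bp on each side of 5 of the 6 strongest such summits that held CAAACA within the window and touched no exon, on the plus strand. They come from the RefSeq sequence of the release 6 genome (dm6). The capitals mark CAAACA and TAAACA, or their reverse complements TGTTTG and TGTTTA. The windows lie 909 bp outside lncRNA:CR44854 (chr2L:14556980-14557080) and in introns of Dys (chr3R:19584890-19584990), CG13917 (chr3L:1579519-1579619), vn (chr3L:5824210-5824310) and Abl (chr3L:16640619-16640719).
lncRNA:CR44854: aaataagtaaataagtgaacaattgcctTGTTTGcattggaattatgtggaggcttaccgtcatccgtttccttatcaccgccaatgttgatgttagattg
Dys: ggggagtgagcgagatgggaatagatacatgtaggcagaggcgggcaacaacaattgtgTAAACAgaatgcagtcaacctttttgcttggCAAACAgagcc
CG13917: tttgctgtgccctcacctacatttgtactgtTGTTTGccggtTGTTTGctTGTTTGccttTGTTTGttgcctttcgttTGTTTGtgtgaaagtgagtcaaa
vn: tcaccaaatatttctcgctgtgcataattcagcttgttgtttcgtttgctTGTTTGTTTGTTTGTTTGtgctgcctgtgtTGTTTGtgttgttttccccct
Abl: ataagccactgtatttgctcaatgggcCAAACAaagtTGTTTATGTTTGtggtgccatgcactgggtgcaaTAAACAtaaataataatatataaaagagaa
The CG13917 and vn windows each held 5 CAAACA matches, in vn partly as a run of overlapping repeats of TGTT. The Abl window held 2, and the other 2 windows held 1 each.

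The second kind lay at start sites, with ribosomal protein genes as a recurring group. The windows below run from 100 bases before the start site to base +26 of the transcript, on the strand of the gene, for the 5 ribosomal protein genes with the strongest members outside the second chromosome's right arm. They are RpLP0 (chr3L:22075992-22076117, plus strand), RpS25 (chr3R:11216262-11216387, minus strand), RpS20 (chr3R:20822081-20822206, plus strand), RpL24 (chr2L:13395067-13395192, minus strand) and RpL4 (chr3R:27922721-27922846, plus strand). Capitals mark a pyrimidine tract CTTTT or CTTTC at the start site, the DRE (TATCGATA, the site of Dref) in RpS25, and Motif 1 (GGTCACAC, the site of M1BP) in RpLP0.
RpLP0: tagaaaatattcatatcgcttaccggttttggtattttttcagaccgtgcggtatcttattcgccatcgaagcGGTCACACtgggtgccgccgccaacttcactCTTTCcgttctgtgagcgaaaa
RpS25: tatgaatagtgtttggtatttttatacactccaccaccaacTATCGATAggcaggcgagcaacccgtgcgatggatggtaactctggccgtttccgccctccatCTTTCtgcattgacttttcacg
RpS20: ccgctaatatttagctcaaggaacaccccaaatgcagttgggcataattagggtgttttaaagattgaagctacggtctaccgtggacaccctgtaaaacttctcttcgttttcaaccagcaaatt
RpL24: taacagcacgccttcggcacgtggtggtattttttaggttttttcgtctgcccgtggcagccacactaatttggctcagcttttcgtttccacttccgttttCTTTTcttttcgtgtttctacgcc
RpL4: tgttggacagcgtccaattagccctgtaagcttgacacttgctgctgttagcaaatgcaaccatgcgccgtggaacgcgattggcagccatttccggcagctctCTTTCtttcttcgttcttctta
The annotated start sites lay a few bases before the pyrimidine tract: its C was at +5 in RpLP0, RpS25 and RpL4 and at +3 in RpL24. The RpS20 window held neither form of the tract.

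The signal value is the authors' score per peak. Its scale is not given in the sources used here, and it served to rank peaks within a list. To set the lists side by side, each value was expressed relative to the median over the strong peaks of its list, 126.6 for replicate 4 and 90.1 for replicate 6, and the quotient is called relative signal. The members' signal values ran from 78.5 to 1702, with a median of 95.7. Their median relative signal was 0.756 and their median rank in the replicate 4 list was 1490, from rank 32 to rank 2005. Most members were therefore in the lower part of the strong peaks. All 667 had the highest −log10 q-value of the replicate 4 list, 3.94, so the q-values do not order them.

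Few members were absent from replicate 6 altogether. For 381 of 667 members (57.1%, interval 53.3 to 60.8%) the replicate 6 list held a weaker summit within 100 bp. Another 164 (24.6%, 21.5 to 28.0%) overlapped an interval of a strong replicate 6 peak but had their summit elsewhere in it, and 70 (10.5%) overlapped a weaker interval with another summit. The remaining 52 (7.80%, 5.99 to 10.1%) overlapped no interval of the 30000. Replicate 6 only peaks had 56.5%, 20.7%, 13.3% and 9.45% in the same classes. The first and last of these are within the members' intervals, while the share in a strong interval of the other list was lower and that in a weaker interval higher than the members' intervals reach.

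Counting summits over the whole replicate 6 list, 444 members had one within 100 bp and 223 (33.4%, 30.0 to 37.1%) did not. The 444 ranked from 2009 to 28630 in replicate 6, with a median rank of 4049. Their relative signal in replicate 6 had a median of 0.379, and the ratio of replicate 4 to replicate 6 had a median of 2.18, from 1.04 to 11.5. These values follow in part from the rule. In the pooled list of both replicates, 604 members (90.6%) had a summit within 100 bp, and 363 (54.4%, 50.6 to 58.2%) had one in the list thresholded on agreement between replicates (irreproducible discovery rate).

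**Figure D1:**
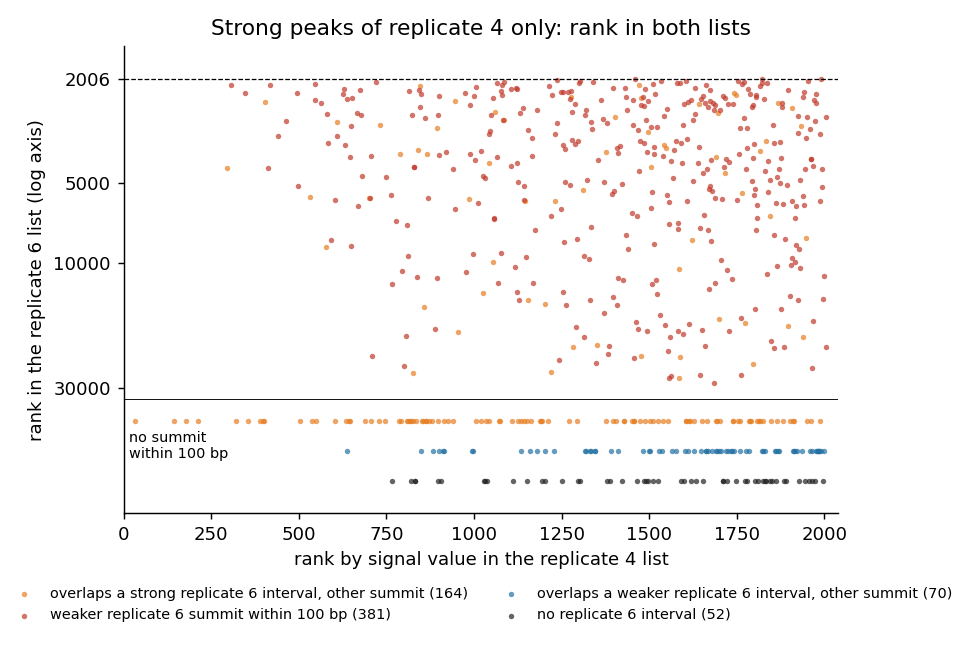
Rank by signal value of the 667 members in the replicate 4 list (horizontal axis) and of the replicate 6 summit within 100 bp (vertical axis, log scale, strongest at the top); each point is 1 peak, and the rows under the solid line hold the 223 members with no such summit. The dashed line is the last rank counted as strong, and the points at the far left, of highest replicate 4 signal, are mostly orange, that is, within a strong replicate 6 interval.

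The members of highest signal were mostly strong in both replicates with the summit placed differently. Of the 25 strongest members, 15 overlapped a strong replicate 6 interval and the other 10 had a weaker summit within 100 bp. The strongest member lay 314 bp from a start site of CG10417 (FBgn0033021), with its summit at position 5363418 of 2R in the pericentromeric part. Its signal value was 1702, rank 32, and the nearest strong replicate 6 summit was 155 bp away. The second lay 115 bp from the start of eIF4G1 (FBgn0023213, the scaffold of the cap-binding complex) on chromosome 4, at position 930830, with rank 144 and a strong replicate 6 summit at 134 bp. The third lay between Wdfy2 (FBgn0032246) and pie at position 10423173 of 2L, with a signal value of 570 and rank 179. Here the replicate 6 only set held the counterpart: its summit at 10423067, 106 bp away, had rank 193 in replicate 6. The relative signals were 4.51 in replicate 4 and 4.61 in replicate 6, so the site was about equally strong in both lists and entered both sets through the position of the summit.

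The same pattern held at DIP1 (a double-stranded RNA-binding protein), rank 211 with a strong replicate 6 summit at 120 bp. It also held at Alg-2 (rank 354, 221 bp), Ama (a secreted immunoglobulin-domain protein, rank 401, 132 bp), Ice1 (a subunit of the little elongation complex, rank 504, 175 bp) and Grip84 (a subunit of the gamma-tubulin ring complex, rank 549, 178 bp). At Klp31E (a kinesin, rank 294) and snama (rank 404) a strong replicate 6 summit lay 120 bp away and a weaker one within 100 bp, of rank 4377 at Klp31E and rank 2458 at snama. The 5 strongest replicate 6 only peaks, at Gprk1, CG10395, RpS3A, SmD1 and Wdfy2, with ranks from 93 to 193, were likewise all within strong replicate 4 intervals. Such members differ between the lists in summit position, not in being found.

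Other strong members were weak in replicate 6. The peak in CG17124, 170 bp from a start site of mir-9378 at position 10752108 of 2L, had rank 307 and a relative signal of 2.55 in replicate 4. In replicate 6 it had rank 2107 and a relative signal of 0.581, which is 4.39 times lower. An intron of Dys (FBgn0260003, dystrophin) held a member at 19584940 of 3R with relative signals of 1.75 (rank 462) and 0.470 (rank 2892). An intron of InR (FBgn0283499, the insulin receptor) held one at 21590842 of 3R with 1.64 (rank 496) and 0.554 (rank 2260). In an intron of Meltrin (an ADAM metalloprotease) the values were 1.64 (rank 498) and 0.330 (rank 5128). Both replicates thus found these 4 sites, and the rule fixes which relative signal is higher. The peaks 154 bp outside Inx2 (a gap junction innexin, rank 441 against 3290) and in vn (a ligand of the EGF receptor, rank 547 against 2102) were further members of this kind.

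Of the 52 members with no replicate 6 interval, the strongest lay 3170 bp outside caup (an Iroquois transcription factor) at 12606461 of 3L, with a relative signal of 1.20 and rank 767. The next were at the start site of Hsp83 (FBgn0001233, the fly Hsp90), with a summit at 3193119 of 3L and a relative signal of 1.14 (rank 819), and at Duox (an NADPH oxidase), with 1.13 (rank 832). Members in introns of mew (an integrin alpha subunit, rank 833), Pvf3 (a PDGF- and VEGF-like ligand, rank 896) and p120ctn (a catenin, rank 905) followed. The next was 2151 bp outside Sema5c (a semaphorin, rank 1029), and then came the start site of RpL41 (rank 1032). None of the 52 ranked above 767, so every member of higher rank overlapped some replicate 6 interval. The first quartile of the members' ranks was 1081.5, so the absent members named here were still among the stronger members.

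The thresholds of the rule cut through a continuous range. The 3 members of lowest signal had values of 78.7, 78.6 and 78.5, and the 3 peaks just below the limit had 78.4, 78.4 and 78.3. The members nearest the limit in replicate 6 had ranks 2009, 2010 and 2011 there, and the strong replicate 4 peaks nearest on the other side matched ranks up to 2002 and the last strong rank. By summit distance, the nearest members inside were at 102, 102 and 104 bp from a strong replicate 6 summit, and the nearest peaks outside were at 100 bp.

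By place in the genome the members resembled the shared strong peaks. On the chromosome arms lay 481 members (72.1%, 68.6 to 75.4%), in the pericentromeric parts 139 (20.8%, 17.9 to 24.1%) and on chromosome 4 another 47 (7.05%, 5.34 to 9.24%). The shared strong peaks had 71.2%, 21.1% and 7.54%, all inside those intervals. The replicate 6 only peaks had 64.8%, 31.0% and 3.90%, with fewer on the arms and chromosome 4 and more in pericentromeric DNA, outside the members' intervals. Chromosome X held 52 members (7.80%, 5.99 to 10.1%), against 11.7% of the shared and 12.4% of the replicate 6 only peaks. Chromosome Y held 0 of 667, so the share could reach 0.450%.

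The members were less often at start sites than the shared peaks were. A start site was within 500 bp of the summit in 277 of 667 (41.5%, 37.8 to 45.3%), against 59.3% of the shared peaks, 40.8% of the replicate 6 only peaks and 22.8% of the other replicate 4 peaks. On the arms the share was 49.3% against 62.3% of the shared peaks. In pericentromeric DNA it was 16.5% against 43.5%, and on chromosome 4 it was 36.2% (24.0 to 50.5%) against 76.2%. In all 3 places the shared peaks' share was above the members' interval. Introns held 230 members (34.5%, 31.0 to 38.2%) against 20.8% of the shared peaks, 30.9% of the replicate 6 only peaks and 38.6% of the other replicate 4 peaks, and intergenic DNA held 130 (19.5%). An annotated transposable element held 36 member summits (interval 3.92 to 7.38%), against 2.91% of the shared peaks, 6.90% of the replicate 6 only peaks and 6.54% of the other replicate 4 peaks. The last 2 shares are within the members' interval.

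**Figure D2:**
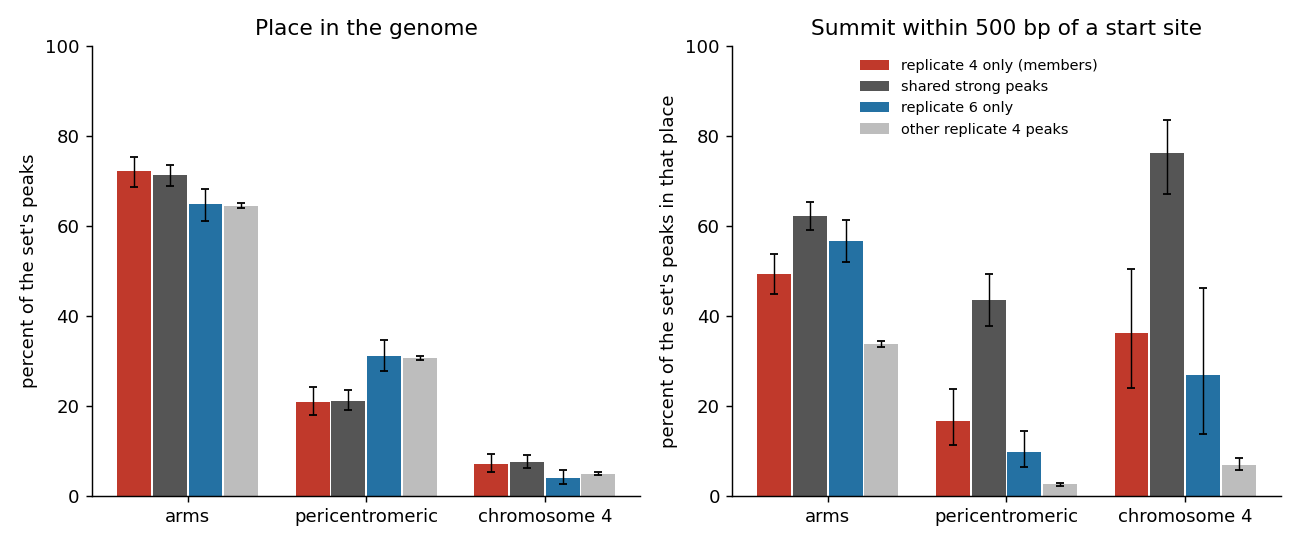
Left, percent of each set's peaks on the chromosome arms, in pericentromeric parts and on chromosome 4; right, percent of the peaks in each place with a summit within 500 bp of a start site; bars are shares and error bars Wilson 95% intervals (counting error only). The members' bars match those of the shared peaks on the left and are lower than them in all 3 places on the right.

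Start-site members also sat differently around the start. Their summits were a median of 94 bp from the nearest start site, against 124 bp for the shared and 168.5 bp for the replicate 6 only peaks. Within 100 bp lay 53.1% of them (47.2 to 58.9%), against 39.4% and 23.2%. Upstream of the start lay 72.2% (66.7 to 77.1%), against 87.4% and 83.1%. The other replicate 4 start-site peaks had a median of 130 bp, with 41.9% within 100 bp and 54.7% upstream. Replicate 4 only summits were thus closer to the start than those of the 3 other sets. Fewer of them were upstream than in the shared and replicate 6 only peaks, but more than in the other replicate 4 peaks.

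The members outside the arms were fewer and less clear-cut than those on the arms. Of the 23 pericentromeric members at start sites, 18 (78.3%, 58.1 to 90.3%) overlapped a strong replicate 6 interval, as at CG10417 and Alg-2. Of the 116 pericentromeric members away from start sites, 43 (37.1%) did, and 20 (17.2%) had their summit in an annotated transposable element. The strongest of these, near IFT20 (an intraflagellar transport gene) at 5352964 of 2R, had rank 390, and one near Atf6 (a stress-responsive transcription factor) at 5143739 of 2R had rank 399, with strong replicate 6 summits at 107 and 124 bp. The intergenic peak 20608 bp outside CG40191 on 2R differed more, with rank 411 in replicate 4 and rank 4359 in replicate 6. On chromosome 4 the strongest member after eIF4G1 was 3924 bp outside zfh2 (a zinc finger and homeodomain protein) at 497886, rank 346 against 2258. Next came 2 members at ranks 531 and 538, in lncRNA:CR46488 and in an intron of Rnf11, both within strong replicate 6 intervals.

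Of the 13968 protein-coding genes, 339 (2.43%) had a member within 500 bp of a start site, 918 (6.57%) a shared strong peak and 353 (2.53%) a replicate 6 only peak. Against these shares the cytoplasmic ribosomal protein genes stood out by count: 25 of 86 (29.1%, 20.5 to 39.4%) had a member, and 21 of 86 (24.4%, 16.6 to 34.5%) a shared strong peak. A replicate 6 only peak was at 3 of 86 (3.49%, 1.19 to 9.76%), and all 3 genes also had a shared strong peak. In all, 45 of the 86 (52.3%) had a strong start-site peak in replicate 4 and 21 (24.4%) had one in replicate 6. Over all protein-coding genes the shares were 8.46% in replicate 4 and 8.74% in replicate 6. Of the 86, 41 had none in either. The 21 of replicate 6 were thus all among the 45 of replicate 4. The 25 genes had 25 different peaks, and all lay on the arms. They encode 19 of the 48 proteins of the list named for the large subunit, and 6 of the other 38. Neighbouring genes with 1 promoter were each counted for its peak.

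The peaks at these 25 genes were of middle rank in replicate 4 and close to the start. Their ranks ran from 626 to 1939 with a median of 1401, and their relative signals from 0.635 to 1.39 with a median of 0.787. The summit was 3 to 250 bp from a start site, with a median of 25 bp. A replicate 6 summit within 100 bp existed for 19 of them, with ranks from 2199 to 10597 (median 2869) and relative signals from 0.208 to 0.565 (median 0.472). The relative signal in replicate 4 was 1.18 to 3.48 times that in replicate 6, with a median of 2.00. A ratio above 1 is fixed by the rule, and the median over all 444 matched members was 2.18. Unlike most of the strongest members, the peaks at the 25 genes did not lie within strong replicate 6 intervals, with 1 exception. RpL27A, whose member was 250 bp from the start, overlapped such an interval and also had a shared strong peak.

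RpLP0 (FBgn0000100), the base of the ribosomal stalk, had the strongest of these peaks, with the summit at 22076079 of 3L and 13 bp from the start. The replicate 4 signal was 175, a relative signal of 1.39 and rank 626, and its replicate 6 summit had 0.550 and rank 2283. RpS25 followed with 1.11 (rank 842) against 0.565 (rank 2199), and RpS20 with 1.01 (rank 989) against 0.391 (rank 3862). RpL24 had 1.01 (rank 990) against 0.516, and RpL4 had 1.00 (rank 1001) against 0.543. In all 5 genes the replicate 4 peak was at or above the median strong peak of its list, while the rule keeps the replicate 6 peak below the strong peaks of its own.

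The next 5 were RpL41, RpS4, RpL23A, RpL11 and RpL28. RpL41 had a relative signal of 0.977 (rank 1032) and no replicate 6 interval; its peak also lies within 500 bp of a start site of NaCP60E. RpS4 had 0.970 against 0.485, RpL23A 0.966 against 0.536 and RpL11 0.944 against 0.472. RpL28 had 0.899 (rank 1150) and no replicate 6 interval; its peak is shared with eIF1, a translation initiation factor. RpS18 (rank 1803) and RpS16 (rank 1927) had no replicate 6 interval either. RpL13 (rank 1331), which shares its promoter with Dref, and RpL26 (rank 1661) overlapped a weaker interval with another summit. The other 11 were RpL30, RpL23, RpL37A, RpL22, RpL17, RpL3, RpL27A, RpL7A, RpL19, RpS23 and, lowest, RpL36A, with 0.635 (rank 1939) against 0.539 (rank 2351). RpL36A therefore differed little between the lists and lies near the threshold.

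**Figure D3:**
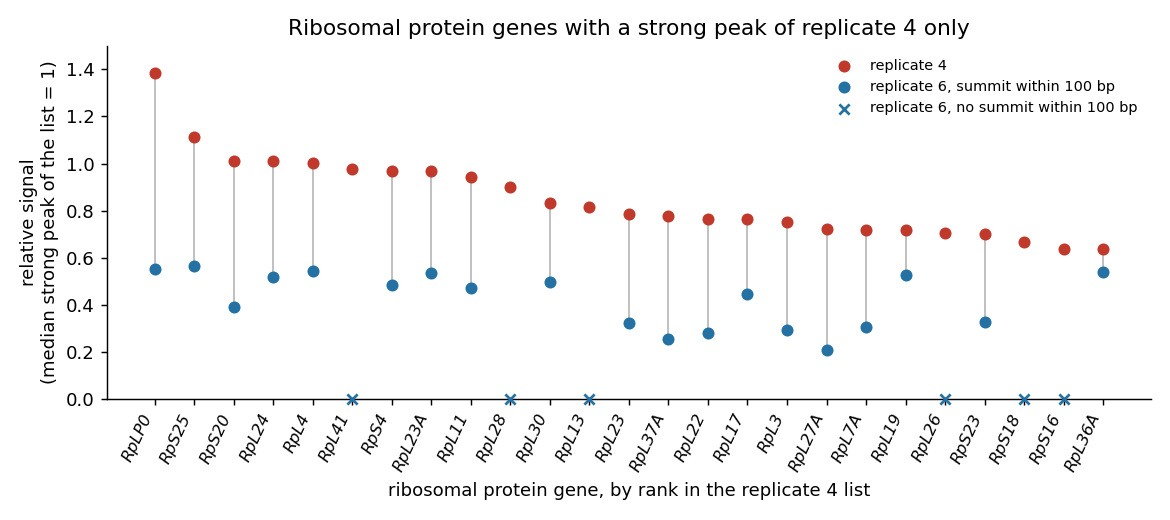
Relative signal (signal value over the median strong peak of its list) of the peak at the start site of each of the 25 ribosomal protein genes with a member, in replicate 4 (red) and at the replicate 6 summit within 100 bp (blue), ordered by replicate 4 rank; crosses at 0 mark the 6 genes with no such summit and are not values. Lines join the values of 1 gene, and the gap is wide at RpLP0 and narrow at RpL36A.

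Taking the strongest start-site summit of every gene in each list, whatever its rank, 62 ribosomal protein genes had one in both lists. At 50 of the 62 (80.6%) the relative signal was higher in replicate 4, with a median log2 ratio of 0.65 and a range from −1.21 to 1.75. Over all 4093 protein-coding genes with a summit in both lists the share was 58.2% and the median 0.15. The segmentation genes had a like share, 9 of 11 (81.8%), with a median of 0.70, and the Polycomb group had 10 of 14 with a median of 0.38. Chemoreceptors had 5 of 6. The mitochondrial ribosomal protein genes had 18 of 37 and a median of −0.03, and mitotic kinases, cyclins and cdc25 had 3 of 11 and a median of −0.15. The 25 members are among the 62 where they have a replicate 6 summit, so these values are not independent of the rule and are given as a description.

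Other gene lists had few members. Translation factors had 4 of 54 (eIF4G1, eRF3, eIF1 and eIF4EHP), proteasome subunits 3 of 48 (Prosbeta1, Rpn5 and Rpn10) and mitochondrial ribosomal proteins 3 of 73 (mRpL16, mRpL11 and mRpS5). Of these 10, Prosbeta1 (rank 1521 against 3043) and Rpn10 (rank 1801 against 5238) alone had a replicate 6 summit within 100 bp, and eIF4G1, eIF4EHP, Rpn5 and mRpS5 overlapped a strong replicate 6 interval. Heat shock proteins had 1 of 36 (Hsp83), heterochromatin proteins 1 of 24 (cuff, a germline partner of rhino, rank 1539), insulator and promoter-binding proteins 1 of 23 (Dref) and actins and tubulins 1 of 16 (Act42A, rank 1107 against 4279). These shares are close to the 2.43% of all genes or rest on 1 to 4 genes.

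The remaining lists had no member at a start site. They were the mitochondrial respiratory chain (0 of 86, which allows up to 3.49%), histones (0 of 116, up to 2.59%), cuticle proteins (0 of 118, up to 2.54%) and chemoreceptors (0 of 179, up to 1.68%). Hox genes had 0 of 8, segmentation genes 0 of 33, the Polycomb group 0 of 21 and mitotic kinases, cyclins and cdc25 genes 0 of 19, lists too short for a narrow limit. Among non-coding genes, 42 of 3289 genes of the class ncRNA and 6 of 269 snoRNA genes had a member within 500 bp. Uhg4, a snoRNA host gene at 9095203 of 2R, had the strongest of the snoRNA peaks, with rank 562 against 2482.

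The ribosomal protein start sites shared the initiator tract, whether or not they had a member. The pattern of the list of motifs, CTTTT on the strand of the gene with its C from −2 to +3, matched 2 of the 25 genes, against 1.20% of all protein-coding genes. A wider pattern, chosen after the sequences had been seen, took CTTTT or CTTTC with its C from −10 to +10. It matched 22 of 25 (88.0%, 70.0 to 95.8%), 19 of the 21 genes with a shared strong peak and 32 of the 41 others, against 9.06% of all protein-coding genes. Over the 314 other coding genes with a member it matched 12.7%. The tract is thus a feature of the gene family and did not mark those with a replicate 4 only peak.

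Letters around all 237 start-site members on the arms were counted within 100 bp of the summit on both strands, and for comparison within 100 bp of 1 start site of each of 13672 coding genes on the arms. The DRE was within 26 of the 237 (11.0%, 7.60 to 15.6%), against 7.24% of the shared and 4.49% of the replicate 6 only start-site peaks and 7.71% of all start sites. The E-box CAGCTG was in 14.3%, against 7.74% and 6.94%, and in 14.0% of all start sites. TATAAA was in 27.0%, against 46.1% and 46.5%, and in 29.1% of all start sites. The other replicate 4 start-site peaks on the arms had the DRE in 5.78%, the E-box in 12.8% and TATAAA in 24.3%. By the E-box and TATAAA the members resembled them and start sites in general, and the shared and replicate 6 only peaks departed. For the DRE the share of all start sites lay within the members' interval, and those of the other peak sets lay below it. Windows were centred on summits, at distances from the start that differed between sets, but on the start site for all genes. Base composition differed too, with a median GC of 36.8% in the members, 32.8% in the shared and 41.3% in the other replicate 4 peaks. The part of window position and of GC in these shares was not tested.

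The members on the arms away from start sites, 244 in number, carried the forkhead-type core more often than the other sets did. This pattern was noticed in the data and its letters were chosen after that. CAAACA was within 100 bp of the summit in 124 of 244 (50.8%, 44.6 to 57.0%). The shares were 72 of 360 (20.0%) in the shared strong peaks away from start sites, 34 of 187 (18.2%) in the replicate 6 only peaks and 22.2% in the other 11963 replicate 4 peaks of this kind. All start sites on the arms had 19.3%. TAAACA, the other core, was in 43.0% of the members, against 26.4% of the shared and 19.8% of the replicate 6 only peaks. One or the other was in 69.3%, against 40.8% and 33.7%.

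The longer forms differed more. GCAAACA was in 24.6% of these members, against 5.28% of the shared and 5.35% of the replicate 6 only peaks, and GTAAACA in 18.0%, against 4.72% and 2.14%. Each longer form contains a shorter one, so the counts overlap. Several matches in 1 peak were more frequent as well: 50 of the 244 members had at least 2 matches of CAAACA within 100 bp, against 13 of the 360 shared peaks. The windows of CG13917, vn and Abl printed above are of this kind.

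The core was concentrated at the summit. Within 50 bp of it the members had 53.7 matches of CAAACA per 100 peaks, and at 400 to 500 bp they had 12.7 per 100 peaks and 100 bp. The shared peaks had 13.9 and 12.5, and the replicate 6 only peaks 11.2 and 16.3, with no such excess at the summit. The other replicate 4 peaks had 15.1 and 11.9, a smaller excess. Away from the summit the members were thus within the range of the other sets. GC differed between the sets here too. Its median over 201 bp was 38.8% in these members, 32.8% in the shared, 31.8% in the replicate 6 only and 41.8% in the other replicate 4 peaks. Among the members it was 40.3% in those with CAAACA and 36.8% in those without. The part of GC was not tested.

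**Figure D4:**
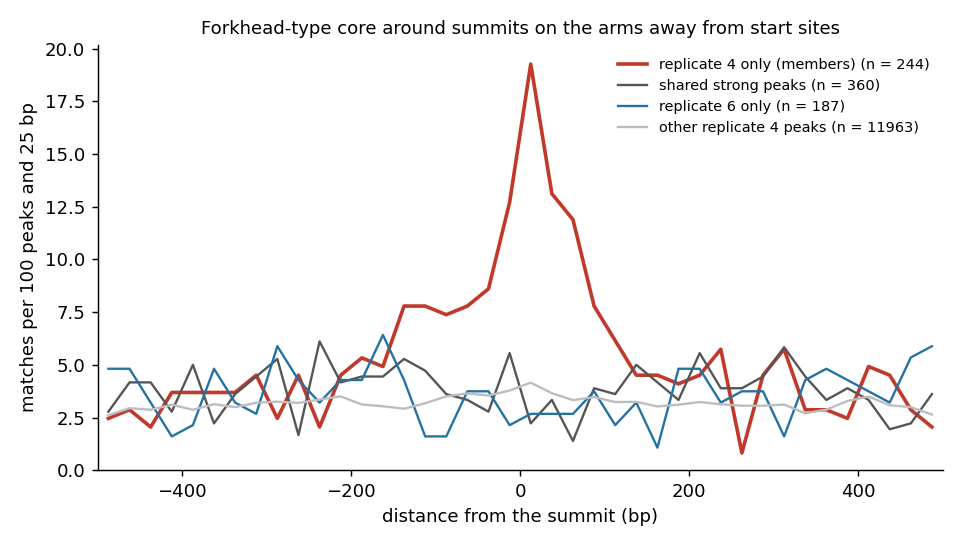
Matches of CAAACA or TGTTTG per 100 peaks in bins of 25 bp, by distance from the summit (plus strand of the genome), for peaks on the chromosome arms away from start sites; lines are the members, the shared strong peaks, the replicate 6 only peaks and the other replicate 4 peaks. The line of the members has the highest peak at the summit; the other replicate 4 peaks rise slightly there, from 11.9 per 100 peaks and 100 bp at 400 to 500 bp to 15.1 within 50 bp.

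Among the members the core was most frequent at the distal sites on the arms. Members at start sites on the arms had CAAACA in 23.2% (18.3 to 29.0%), against 19.3% of all start sites there. The shared start-site peaks on the arms had 16.5%, below that interval, the replicate 6 only peaks 18.4% and the other replicate 4 peaks 20.9%. Members off the arms, start-site and distal peaks together, had it in 21.0% (15.7 to 27.4%). The same sets off the arms had 21.3%, 16.6% and 16.6%. Of the distal members, 183 of 244 lay inside a gene, and 97 of the 124 with the core did. By replicate 6 rank the share was 30 of 62 for members with no replicate 6 summit within 100 bp, 25 of 61 at ranks up to 3000, 33 of 58 at ranks 3001 to 6000 and 36 of 63 beyond that. The share was therefore of like size whether or not replicate 6 also had a weak peak there. Only 21 of the 244 (8.61%, 5.70 to 12.8%) overlapped a strong replicate 6 interval, against 29.1% of the start-site members on the arms.

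Peaks of ranks from 2007 on, which cannot be members, were split in another way, by whether the other list had any summit within 100 bp. Among the members themselves, shares by this split were of like size, as given above. Among replicate 4 peaks of ranks 2007 to 4000 on the arms away from start sites, 73 of 173 (42.2%) with no replicate 6 summit within 100 bp had the core, against 25.6% of the 473 with one. At ranks 4001 to 8000 the shares were 31.3% and 25.5%, at ranks 8001 to 15000 they were 24.4% and 21.0%, and beyond rank 15000 they were 20.3% and 19.8%. The gap thus narrowed down the list. The replicate 6 list had the opposite order from rank 2007 on, though with widely overlapping intervals at ranks 2007 to 4000. There the share was 29 of 157 (18.5%, 13.2 to 25.3%) without a replicate 4 summit and 20.0% (16.5 to 24.1%) with one. At ranks 4001 to 8000 it was 16.6% (13.5 to 20.3%) and 23.3% (20.0 to 27.0%). Among the strong replicate 6 peaks beyond rank 1000 the share was 6 of 24 without a replicate 4 summit and 21.7% of 323 with one.

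**Figure D5:**
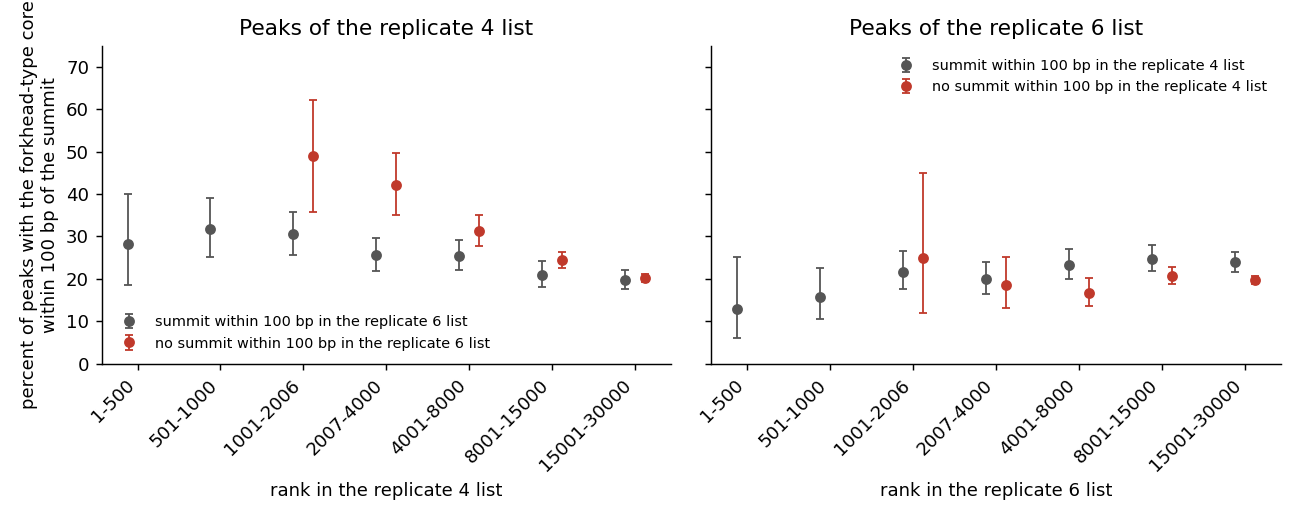
Percent of peaks on the arms away from start sites with CAAACA or TGTTTG within 100 bp of the summit, by rank in the replicate 4 list (left) and the replicate 6 list (right), for peaks with (grey) and without (red) a summit within 100 bp in the other list; points are shares, bars Wilson 95% intervals, and bins of under 15 peaks are left out. On the left the red point lies above the grey one in every bin that shows both, with the widest gap at ranks 2007 to 4000 (42.2% against 25.6%) among the ranks below the strong peaks. On the right it lies below the grey one in every bin of ranks from 2007 on and above it in the bin of strong peaks, where it stands for 24 peaks.

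Several genes held more than 1 of these distal members. The 183 members inside genes were spread over 156 genes, and 23 genes held 2 or more. No such count is given here for the other sets, and the part of gene length was not tested. The gene jing (FBgn0086655), which encodes a zinc finger protein, held 4, all with CAAACA, at 6606030, 6512515, 6524933 and 6603194 of 2R. Their relative signals in replicate 4 were 1.36, 1.27, 0.902 and 0.713, and the last 3 had 0.311, 0.331 and 0.472 in replicate 6 while the first had no summit within 100 bp. A lower value in replicate 6 follows from the rule for every matched member. Dys held 2 with CAAACA, of ranks 462 and 1057 in replicate 4 and 2892 and 6831 in replicate 6. Piezo (a mechanosensitive channel) held 2, of ranks 705 and 1965, both with CAAACA.

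Most of the other genes with several distal members held 2. CAAACA was in both members of otk (a receptor-like transmembrane protein), cic (a transcriptional repressor), MESR3, side-V and Ptp61F (a tyrosine phosphatase). It was in 1 of 2 in tkv (a BMP receptor), fz (a Wnt receptor), Eip75B (a nuclear receptor), ush (a cofactor of GATA factors), caps, Sulf1 (a sulfatase of heparan sulfate), px, PRAS40 and lncRNA:CR32773. InR had 2 members, of ranks 496 and 822 against 2260 and 2739 in replicate 6, and Antp (a Hox protein) had 2, of ranks 1339 and 1590 against 2049 and 3503. None of these 4 had CAAACA, nor did the 2 of sens-2. The genes hrm and hth (a homeodomain protein) held 3 each, with CAAACA in 1 of 3. The genes of this paragraph and the last are 22 of the 23 with 2 or more distal members, a rule set after their values were seen.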

How the data were processed

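ChIP-seq peak lists of 1 group of 2 biological replicates were used. The authors deposited a list for each replicate, made with a common control alignment, a pooled list and a list thresholded on agreement between replicates, per the labels and the deposited file listing. Coordinates are dm6, per the labels. No source used here names the aligner or the program that called the peaks. Strong peaks were the 2006 of highest signal value in each list. The signal value is a score from the authors' processing, of a scale not stated. The deposited −log10 q-values were read only to see whether they order the members.

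Peaks were placed by summit, written 1-based. Start sites came from Ensembl release 115, leaving out transposable elements, and sequence from RefSeq, release 6, whose chromosomes the peak coordinates fit. A peak was at a start site when its summit lay within 500 bp of one. Pericentromeric parts were set by rounded borders: from 22 Mb on 2L and X and 23 Mb on 3L to the end, and the first 5.4 Mb of 2R and 4.2 Mb of 3R. A summit had 1 class: start site first, then type of exon, intron or intergenic. The 16 gene lists were matched by symbol or synonym.

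No test was run, because each list is 1 library; shares carry Wilson 95% intervals, and a count of 0 is given with the share of 3 counts. Members, lists and motifs were chosen with earlier results of these data known, except the forkhead-type cores and the wider initiator pattern, which were chosen after the values were seen. Genes were named by rule: the 25 strongest members, ribosomal protein genes with a member, up to 4 genes of each other list, the 10 strongest members with no replicate 6 summit, up to 5 each in pericentromeric DNA and on chromosome 4, the 3 peaks on each side of each threshold and the 5 strongest replicate 6 only peaks. Members with no interval in replicate 6 and genes with several distal members were added after their values were seen. 1 of the 6 windows with CAAACA and its gene are not reported here. Matching and start-site assignment were tested on simulated data. Alternatives were other match and start-site distances, interval overlap, lists 0.5 and 2 times as long (1003 and 4012 peaks), borders, 1 member per interval, absence from the whole replicate 6 list and replicate 6 left out. Python 3.11.15, numpy 2.4.6, pandas 2.3.3 and scipy 1.17.1 were used.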

Additional observations from a re-analysis of the deposited data

How the results depend on the processing

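None of the results has a test, so a result is said to have moved when its value left the counting interval of the reported one, or for counts changed by over 1.5 times. Of 80 recomputed values, 40 stayed within that range and 40 moved. The 667 members became 243 with lists 0.5 times as long (short lists), 1836 with lists 2 times as long (long lists) and 223 when absence from the whole replicate 6 list was required; with replicate 6 left out no rule on it remains, and all strong peaks are kept. The share at start sites (41.5%) was 47.4% with a match distance of 50 bp, 36.8% with 250 bp, 36.9% by overlap of intervals, 34.3% with long lists, 53.4% with replicate 6 left out, and 33.6% and 49.8% with start-site distances of 250 and 1000 bp. The share with no replicate 6 summit (33.4%) was 69.3% at 50 bp, 14.6% at 250 bp, 21.4% with short and 50.8% with long lists.

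On the arms, 72.1% became 76.1% at 250 bp, 77.8% by overlap, 78.6% with short lists, 60.2% with long lists and 57.8% when absent from the whole list, and 68.4% and 79.8% with borders moved by 0.5 Mb towards the arm and the centromere. The pericentromeric 20.8% became 17.2%, 15.5%, 13.2%, 30.7%, 33.2%, 24.6% and 13.2% under the same changes. Chromosome 4 stayed within its interval throughout. The 339 genes became 524 at 50 bp, 112 with short lists, 766 with long lists, 113 when absent from the whole list and 1182 with replicate 6 left out. The 25 ribosomal protein genes became 9, 6 and 45 with short lists, when absent and with replicate 6 left out, and were 23 to 32 under the others. With replicate 6 left out the shares were 71.5%, 21.0% and 7.38% by place.

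The share of distal arm members with CAAACA (50.8%) was 42.6% with long lists, 32.5% with replicate 6 left out, and 36.9% and 66.0% within 50 and 200 bp, where the shared peaks had 11.7% and 40.0%; these alternatives were chosen after seeing the data. Replicate 4 cannot be left out, since it defines the members. No paired analysis was possible because there is 1 group. Depth is unknown, so it was not tested whether it differs between the lists.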
